A study of Mus musculus with 8 samples.

Results

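The phagocyte NADPH oxidase was followed through 5 of its subunit genes: Cybb and Cyba, which encode the membrane-bound core, Ncf1 and Ncf4, which encode cytosolic subunits, and Rac2, which encodes the small GTPase of the complex. They were taken by name as a list of 5 among the 24421 gene symbols of the count table. All 5 passed the filter on low counts that left 13722 genes for testing. RNA sequencing had been done on mouse bone marrow cells of the strain C57BL/6, described as carrying MLL-AF10. In this fusion the histone methyltransferase MLL is joined to AF10, as happens in some acute leukaemias.

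The libraries fall into 4 groups of 2. MAflox cells are described as MLL-AF10 flox cells. What is floxed in them, and whether Cre-ERT2 is present, is not stated. MATIP cells have, besides the fusion, both copies of Tip60 floxed (gene Kat5, a histone acetyltransferase) and express Cre-ERT2, a recombinase that 4-hydroxytamoxifen (4-OHT) switches on. Each line received either 100 nM 4-OHT or its solvent, ethanol (EtOH), for 4 days. All groups share the strain and a methylcellulose culture with SCF, IL-3 and GM-CSF, 3 cytokines that support myeloid progenitors. Both lines are described with the fusion, but whether MAflox cells keep it after 4-OHT is not stated. The sources used here give neither the promoter that drives Cre-ERT2 nor the number of clones behind a line. Whether replicate libraries stem from separate cultures is likewise unstated. P-values therefore reflect the spread between these libraries alone, which may be technical.

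Library totals ran from 41101309 to 57312490 counts. Kat5 checks the labels. Its level was 43.7 and 41.2 CPM (counts scaled to library size, with TMM factors that allow for library composition) in MAflox EtOH libraries, 57.5 and 62.5 in MAflox 4-OHT, 41.1 and 41.2 in MATIP EtOH, and 8.11 and 8.32 in MATIP 4-OHT. Kat5 was thus low in the MATIP 4-OHT libraries alone (log2 change -2.32 ± 0.09 SE, edgeR adjusted p = 6.99e-15). That is the group described with floxed Kat5, Cre-ERT2 and 4-OHT. The source of the Kat5 reads left there was not tested. In MAflox cells Kat5 was higher with 4-OHT by 0.50 ± 0.07 on the log2 scale (edgeR adjusted p = 7.50e-06). Kat5 shares 426 exon bases with Rnaseh2c on the opposite strand, and the sources used here do not say whether the counting used strand.

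The phagocyte oxidase moves electrons from cytosolic NADPH across a membrane onto oxygen and makes superoxide, the first product of the respiratory burst of neutrophils and macrophages. The catalytic protein gp91phox (Cybb, also called NOX2) and its partner p22phox (Cyba) form flavocytochrome b558 in the membrane and stabilise each other. On stimulation cytosolic proteins, among them p47phox (Ncf1) and p40phox (Ncf4), move to the membrane together with Rac, and loss of the complex causes chronic granulomatous disease.

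The promoters of the members that have an entry in the RefSeq promoter table (build GRCm38.p6) are shown as a description. Any link between these sequences and the changes with 4-OHT was not tested. Of 5 members 3 had an entry: Cybb, Cyba and Ncf1. Each window runs from 250 bases before to 50 bases after the annotated start, 5′ to 3′ on the gene's own strand, which is the minus strand for all 3. Capitals mark matches to the motifs searched on both strands.
Cybb, chrX:9469275-9469574: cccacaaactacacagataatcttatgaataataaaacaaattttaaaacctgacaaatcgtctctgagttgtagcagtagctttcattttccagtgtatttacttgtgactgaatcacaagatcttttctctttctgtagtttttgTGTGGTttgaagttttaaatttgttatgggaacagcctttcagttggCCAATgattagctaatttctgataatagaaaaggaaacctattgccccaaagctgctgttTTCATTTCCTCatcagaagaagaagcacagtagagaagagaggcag
Cyba, chr8:122432891-122433190: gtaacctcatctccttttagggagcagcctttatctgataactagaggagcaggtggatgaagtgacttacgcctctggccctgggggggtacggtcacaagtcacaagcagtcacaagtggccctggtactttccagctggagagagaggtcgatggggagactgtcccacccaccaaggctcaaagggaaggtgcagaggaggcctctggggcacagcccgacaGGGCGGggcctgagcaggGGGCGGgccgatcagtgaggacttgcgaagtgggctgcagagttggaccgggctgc
Ncf1, chr5:134229576-134229875: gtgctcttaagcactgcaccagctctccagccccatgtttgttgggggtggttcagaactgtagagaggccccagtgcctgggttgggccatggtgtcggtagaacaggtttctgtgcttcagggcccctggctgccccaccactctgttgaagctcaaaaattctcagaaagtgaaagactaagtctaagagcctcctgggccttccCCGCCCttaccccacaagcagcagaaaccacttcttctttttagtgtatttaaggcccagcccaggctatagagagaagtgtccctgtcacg

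The Cybb window held 4 matches, to CCAAT (the CCAAT box), TGTGGT (a RUNX core), GAGGAA (a core of PU.1 sites) and GGAANTGAA (a composite of PU.1 and IRF sites). Positions have no 0: -1 is the last of the 250 bases before the start and 1 the first of the 50 after it. CCAAT lay at -56 to -52 and TGTGGT at -103 to -98. GAGGAA lay on the opposite strand at 10 to 15 and overlapped the composite at 5 to 13, which is also on the opposite strand. Of 32817 windows of the same length in the table, 37.4% held CCAAT, 16.8% held TGTGGT, 28.3% held GAGGAA and 2.35% held GGAANTGAA. The Cyba window had GGGCGG, the GC box, at -24 to -19 and at -6 to -1, and the Ncf1 window had it on the opposite strand at -42 to -37. GGGCGG was found in 35.6% of all windows. These matches are letters in a window and no measure of binding, and the Cybb window lies inside the span of the gene as GENCODE M21 draws it. GC content was 35.3% in the Cybb window, 60.7% in the Cyba window and 54.0% in the Ncf1 window.

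In mm10 the members lie on 4 chromosomes, and all are annotated as protein coding. Cybb spans chrX:9435252-9487771 on the minus strand, Cyba chr8:122424776-122432930 on the minus strand and Ncf1 chr5:134220053-134229625 on the minus strand. Ncf4 spans chr15:78244801-78262580 on the plus strand and Rac2 chr15:78559167-78572783 on the minus strand, 296.6 kb away. Ncf1 shares 408 exon bases with Gtf2ird2 on the opposite strand, so some of its reads may belong to that gene. To set levels of different genes side by side, CPM were divided by the length of the gene's merged exons in kilobases, which is 5.808 for Cybb, 1.039 for Cyba, 3.663 for Ncf1, 2.02 for Ncf4 and 3.103 for Rac2.

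With 4-OHT all 5 members rose in both lines. The change was 42.6-fold and 34.8-fold for Cybb and between 1.24-fold and 4.53-fold for the others. In the test of the difference between the lines, 4 of the 5 rose less in MATIP cells than in MAflox cells and Cybb was not called. Over all genes tested, edgeR called 33.1% higher and 32.1% lower with 4-OHT in MAflox cells. In MATIP cells 37.5% were called higher and 38.6% lower. For the difference of responses 28.3% were called higher in MATIP and 33.6% lower. So many genes were called that the calls of the members are read here together with their sizes. The median log2 change of the members was 1.77 in MAflox cells, against 0.02 over all genes tested. It was 0.74 in MATIP cells, against 0.00 over all genes, and the median difference of responses was -0.56, against -0.03. In bulk RNA a smaller number of cells of a type and less RNA per cell cannot be told apart.

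Most tested markers of neutrophils, monocytes and macrophages rose with 4-OHT, as the members did. This likeness covers the direction with 4-OHT and not the difference between the lines. Of 12 mature neutrophil markers all 12 rose in both lines, and their summed level was 229.7 to 234.0 CPM in MAflox EtOH, 51110 to 54730 in MAflox 4-OHT, 785.7 to 929.3 in MATIP EtOH and 35530 to 39110 in MATIP 4-OHT. Most of the 4-OHT sums came from S100a9, S100a8 and Ngp. Single markers differed both ways between the 4-OHT groups. Camp had a mean of 1747 CPM in MAflox 4-OHT and 175 in MATIP 4-OHT, and Mmp8 had 115 and 1930. Of 12 monocyte and macrophage markers 9 were tested, of which 7 rose in MAflox cells and 9 in MATIP cells. Their sum was 1303 to 1323 CPM in MAflox EtOH, 2914 to 3207 in MAflox 4-OHT, 1304 to 1512 in MATIP EtOH and 11060 to 11540 in MATIP 4-OHT, and C1qa was at 0 counts in every library. Most of the sum was a single gene: Spp1 in MATIP 4-OHT (8083 and 8510 CPM) and Ly6c2 in the other groups (1015 to 2296 CPM). Of 5 progenitor markers 4 fell in each line. The fifth, Kit, was not called in MAflox cells (log2 -0.11 ± 0.06, edgeR adjusted p = 0.134) and rose in MATIP cells (0.80 ± 0.06, adjusted p = 4.66e-10). The progenitor list had sums of 803.1 to 828.7 and 768.2 to 771.2 CPM with EtOH and 454.8 to 459.5 and 340.9 to 345.0 CPM with 4-OHT in MAflox and MATIP cells. Eosinophil markers summed to 7.74 to 8.93 CPM in MAflox EtOH, 51.6 to 78.6 in MAflox 4-OHT, 4.13 to 4.19 in MATIP EtOH and 32.5 to 34.7 in MATIP 4-OHT. Different genes made up these sums. In MAflox 4-OHT they were mainly Prg2 (22.4 and 41.8 CPM), Siglecf (16.3 and 18.3) and Epx (7.99 and 14.4). In MATIP 4-OHT they were mainly Ear1 (9.77 and 10.3 CPM) and Ear2 (16.7 and 17.6). Epx had at most 4 counts and Prg2 at most 2 in any MATIP library. The sum of the dendritic list went from 15.9 to 18.0 CPM down to 4.19 to 5.92 in MAflox cells, and from 4.37 to 4.65 up to 88.0 to 92.0 in MATIP cells. Only 2 genes of this list, Flt3 and Itgax, exceeded 1 CPM in any library, and they went opposite ways. Flt3, which is also on the progenitor list, fell in both lines (log2 -3.50 ± 0.26 in MAflox and -1.89 ± 0.34 in MATIP cells). Itgax rose in both (1.87 ± 0.19 and 5.19 ± 0.13) and made up nearly all of the MATIP 4-OHT sum (90.5 and 86.6 CPM). The lists for mast cells and basophils, erythroid cells and megakaryocytes, and stromal cells summed to at most 93.2 CPM in any library. Most of the stromal sum was Pecam1 (50.4 to 90.0 CPM). The erythroid and megakaryocyte sum went from 1.86 to 2.27 CPM up to 5.92 to 7.69 in MAflox cells. In MATIP cells it went from 1.39 to 1.54 up to 20.5 to 21.1, mostly Ppbp (16.5 and 16.8 CPM with 4-OHT). The B cell list summed to 6.43 to 12.0 CPM, nearly all of it Cd79b (6.31 to 11.6 CPM), with Pax5 at 0 counts in every library. The T and NK cell list summed to at most 7.38 CPM, mostly Lck, which was 6.32-fold lower with 4-OHT in MATIP cells, with Cd3e, Cd8a and Ncr1 at 0 counts in every library. The part of these marker changes in the members' rise was not tested.

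**Figure D1:**
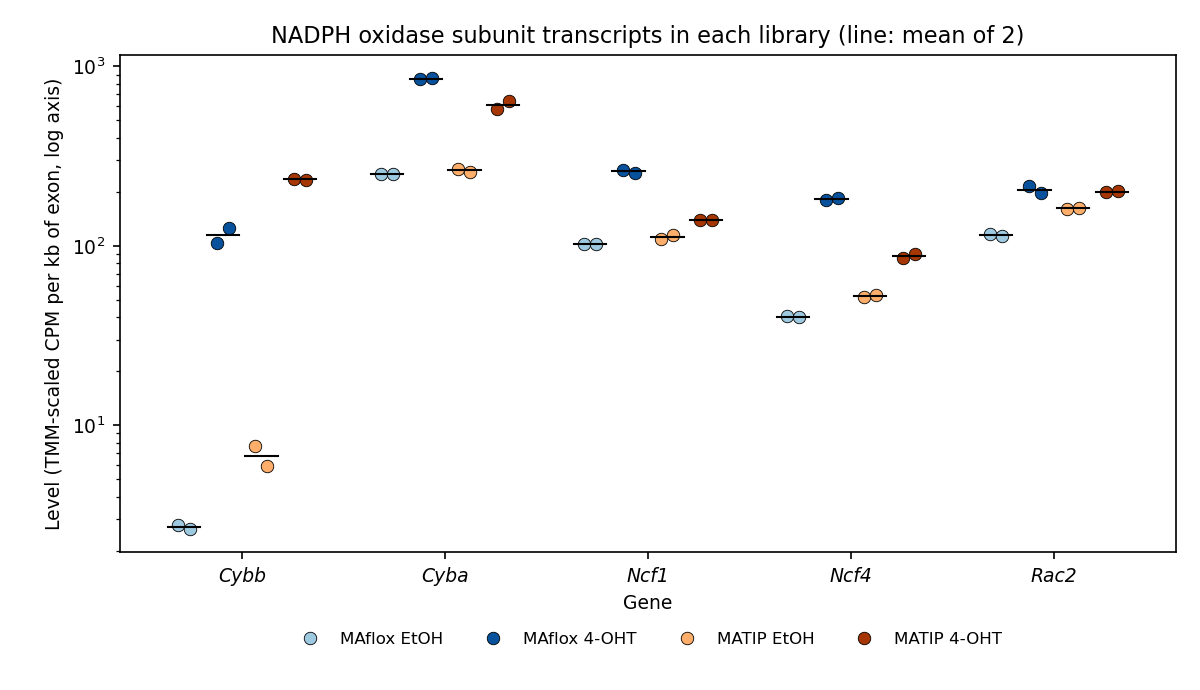
Level of each of the 5 oxidase subunit genes in every library, as TMM-scaled CPM per kilobase of merged exon on a log axis, with points for the 2 libraries of each group and a line at their mean. Cybb goes from 2.63 to 2.77 in MAflox EtOH up to 103.7 and 125.9 in MAflox 4-OHT, and from 5.89 and 7.61 up to 231.9 and 236.7 in MATIP cells.

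Cybb, the catalytic subunit, had 2.77 and 2.63 CPM per kb in the MAflox EtOH libraries and 103.7 and 125.9 in the MAflox 4-OHT libraries. In MATIP cells it had 7.61 and 5.89 with EtOH and 236.7 and 231.9 with 4-OHT. The groups did not overlap, and the order from low to high was MAflox EtOH, MATIP EtOH, MAflox 4-OHT and MATIP 4-OHT. The MAflox EtOH values rest on 708 and 803 counts, and the MATIP 4-OHT values on 57994 and 68270. The change with 4-OHT was 42.6-fold in MAflox cells (log2 5.41 ± 0.11 SE, edgeR adjusted p = 3.66e-18) and 34.8-fold in MATIP cells (5.12 ± 0.11, adjusted p = 1.81e-18). Among the log2 changes of all genes tested, Cybb ranked 213 from the top in MAflox cells and 566 in MATIP cells. The responses differed by -0.29 ± 0.14 on the log2 scale, with an edgeR adjusted p of 0.0739. That difference turned on single libraries: it was -0.48 (adjusted p = 0.000841) without MATIP EtOH replicate 2, -0.39 (adjusted p = 0.0249) without MAflox 4-OHT replicate 1 and -0.11 without MATIP EtOH replicate 1. It was also called with no filter on low counts (-0.27, adjusted p = 0.00512).

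Cyba encodes p22phox, the partner of gp91phox. It had 251.1 and 250.9 CPM per kb in MAflox EtOH, 846.7 and 863.3 in MAflox 4-OHT, 268.1 and 258.1 in MATIP EtOH, and 578.2 and 639.8 in MATIP 4-OHT. The EtOH libraries of both lines lay close together, and the MATIP 4-OHT libraries lay between them and the MAflox 4-OHT libraries. The rise was 3.41-fold in MAflox cells (log2 1.77 ± 0.06 SE, edgeR adjusted p = 4.69e-15) and 2.31-fold in MATIP cells (1.21 ± 0.06, adjusted p = 4.08e-13). The response was smaller in MATIP cells by 0.56 ± 0.08 on the log2 scale (difference -0.56, adjusted p = 7.54e-06).

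Ncf1 encodes p47phox, the organiser that carries the phosphorylation switch of the complex. Its level was 102.2 and 101.9 CPM per kb in MAflox EtOH, 264.0 and 255.6 in MAflox 4-OHT, 109.5 and 115.0 in MATIP EtOH, and 138.5 and 139.2 in MATIP 4-OHT. The MAflox 4-OHT libraries stood far above the other 6, and the MATIP 4-OHT libraries were only slightly above their EtOH controls. Ncf1 rose 2.55-fold in MAflox cells (log2 1.35 ± 0.05 SE, edgeR adjusted p = 6.49e-14) and 1.24-fold in MATIP cells (0.31 ± 0.05, adjusted p = 3.41e-05). The difference of the responses was -1.04 ± 0.07 (adjusted p = 6.68e-10).

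Ncf4 encodes p40phox, whose PX domain binds a phosphoinositide of the phagosome membrane. It had 40.7 and 40.0 CPM per kb in MAflox EtOH, 180.3 and 184.8 in MAflox 4-OHT, 51.8 and 53.3 in MATIP EtOH, and 85.4 and 90.3 in MATIP 4-OHT. As for Ncf1, the MAflox 4-OHT libraries were the highest, and no groups overlapped. Ncf4 rose 4.53-fold in MAflox cells (log2 2.18 ± 0.06 SE, edgeR adjusted p = 1.39e-16) and 1.67-fold in MATIP cells (0.74 ± 0.06, adjusted p = 3.58e-10). Its difference of responses, -1.44 ± 0.08 (adjusted p = 1.71e-11), was the largest in size of the 5 members in the fit reported here.

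Rac2 encodes the Rac GTPase of blood cells, which joins the complex in its GTP-bound form. It had 116.5 and 113.4 CPM per kb in MAflox EtOH, 215.3 and 195.8 in MAflox 4-OHT, 160.2 and 162.9 in MATIP EtOH, and 200.2 and 200.7 in MATIP 4-OHT. The 4-OHT libraries of both lines overlapped, while the EtOH libraries of the lines were apart. Rac2 rose 1.79-fold in MAflox cells (log2 0.84 ± 0.06 SE, edgeR adjusted p = 1.47e-10) and 1.24-fold in MATIP cells (0.31 ± 0.06, adjusted p = 5.69e-05). The difference of responses was -0.53 ± 0.08 (adjusted p = 1.15e-05).

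**Figure D2:**
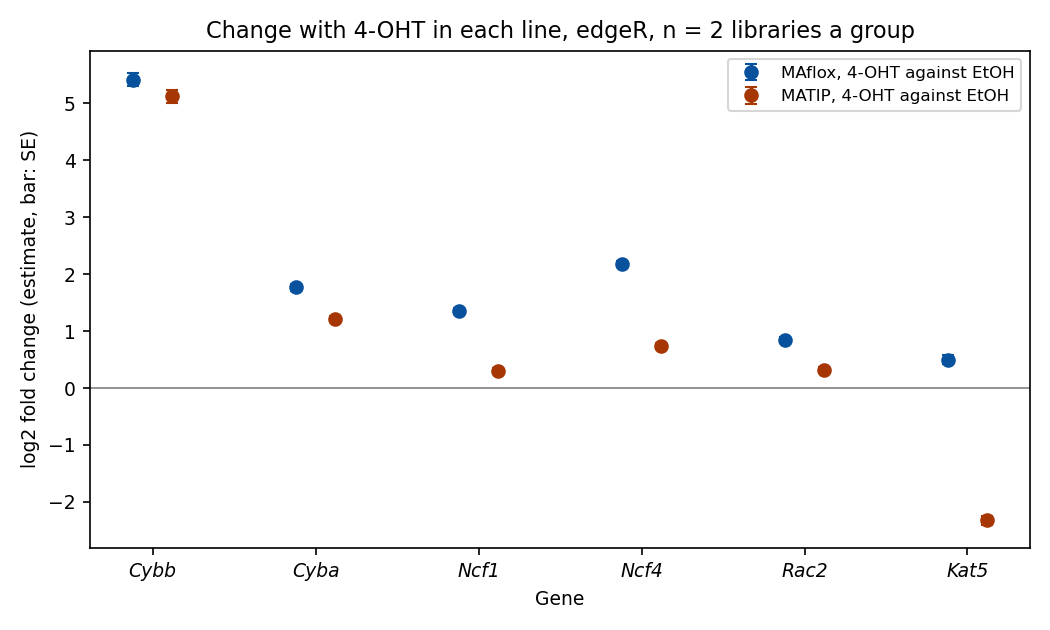
Log2 fold change with 4-OHT against EtOH (edgeR estimate, bars give the SE, 2 libraries in each group) for the 5 members and for Kat5, in MAflox cells (blue) and MATIP cells (brown). The estimates for Cybb are 5.41 and 5.12, those for Ncf4 are 2.18 and 0.74, and Kat5 falls to -2.32 in MATIP cells only.

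The small rises in MATIP cells depended on the scaling. For Ncf1 the log2 change there was 0.17 with library totals alone and 0.45 with upper-quartile factors, and it stayed called in both. Another alternative, chosen after seeing the data, removed the dependence on length and GC content and also set the mean log2 value of the libraries equal. Under it the change in MATIP cells was -0.0013 for Ncf1 (adjusted p = 0.98) and 0.0019 for Rac2 (adjusted p = 0.973). That alternative moved the median change of all genes in MATIP cells by -0.38, and 3 of the 5 members were then called higher there, Cybb, Cyba (0.69) and Ncf4 (0.24).

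The lines were also compared directly. Between the EtOH groups edgeR called 20.3% of all genes higher in MATIP and 11.7% lower, and 3 of the 5 members were higher. Cybb was 2.50-fold higher in MATIP EtOH than in MAflox EtOH (log2 1.32 ± 0.11 SE, edgeR adjusted p = 1.09e-08). Rac2 was higher by 0.49 ± 0.06 (adjusted p = 1.59e-06) and Ncf4 by 0.38 ± 0.06 (adjusted p = 3.07e-05). The estimates for Ncf1, 0.14 ± 0.05 (adjusted p = 0.0555), and Cyba, 0.07 ± 0.06 (adjusted p = 0.406), did not pass, but both passed with the length and GC trend removed (0.14 with adjusted p = 0.0314, and 0.20 with adjusted p = 0.00543). Of the genes called between the EtOH groups 63.35% were higher in MATIP, and with upper-quartile factors this share was 44.93%.

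Between the 4-OHT groups edgeR called 38.1% of all genes higher in MATIP and 37.5% lower. Here the members parted: 1 was higher in MATIP cells, 3 were lower and 1 was not called. Cybb was 2.04-fold higher in MATIP 4-OHT than in MAflox 4-OHT (log2 1.03 ± 0.09 SE, edgeR adjusted p = 4.06e-09). Ncf4 was lower in MATIP 4-OHT by 1.05 (log2 -1.05 ± 0.06, adjusted p = 1.94e-12), Ncf1 had -0.90 ± 0.05 (adjusted p = 1.15e-11) and Cyba -0.49 ± 0.06 (adjusted p = 2.57e-07). The Cyba value was -0.14 with the length and GC trend removed. Rac2 had -0.04 ± 0.06 (adjusted p = 0.566), and its sign changed with the scaling. These contrasts share libraries with those of 4-OHT against EtOH, so the values stand side by side and do not count as separate evidence.

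The order of the members' levels per kilobase changed between groups. In both EtOH groups it was Cyba, Rac2, Ncf1, Ncf4 and Cybb from high to low. In MAflox 4-OHT it was Cyba, Ncf1, Rac2, Ncf4 and Cybb. In MATIP 4-OHT it was Cyba, Cybb, Rac2, Ncf1 and Ncf4. Neighbours in these orders did not overlap between libraries. With the length of the longest transcript in place of merged exons, Ncf1 stood above Rac2 in MAflox EtOH and Ncf4 above Rac2 in MAflox 4-OHT, so those steps depend on the length used. Cybb was lowest in 3 groups and next after Cyba in MATIP 4-OHT with either length.

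The ratio of Cybb to Cyba, both counted per kilobase, gives the transcript balance of the membrane pair. It was 0.0110 and 0.0105 in MAflox EtOH, 0.1225 and 0.1459 in MAflox 4-OHT, 0.0284 and 0.0228 in MATIP EtOH, and 0.409 and 0.362 in MATIP 4-OHT. Every 4-OHT library was above every EtOH library, and MATIP was above MAflox under either treatment. Scaling of a library cancels in this ratio, but a trend on length or GC content does not, and the pair differs in GC content of the longest transcript (42.4% for Cybb and 59.3% for Cyba). The ratio of Ncf1 to Ncf4 was 2.51 and 2.55 in MAflox EtOH, 1.46 and 1.38 in MAflox 4-OHT, 2.12 and 2.16 in MATIP EtOH, and 1.62 and 1.54 in MATIP 4-OHT, so it was lower in all 4 libraries with 4-OHT. Rac2 stood above Rac1, the widely expressed Rac GTPase, in every library, with ratios from 1.49 to 1.55 in MAflox EtOH, 2.44 to 2.53 in MAflox 4-OHT, 1.99 to 2.07 in MATIP EtOH and 2.36 to 2.39 in MATIP 4-OHT.

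**Figure D3:**
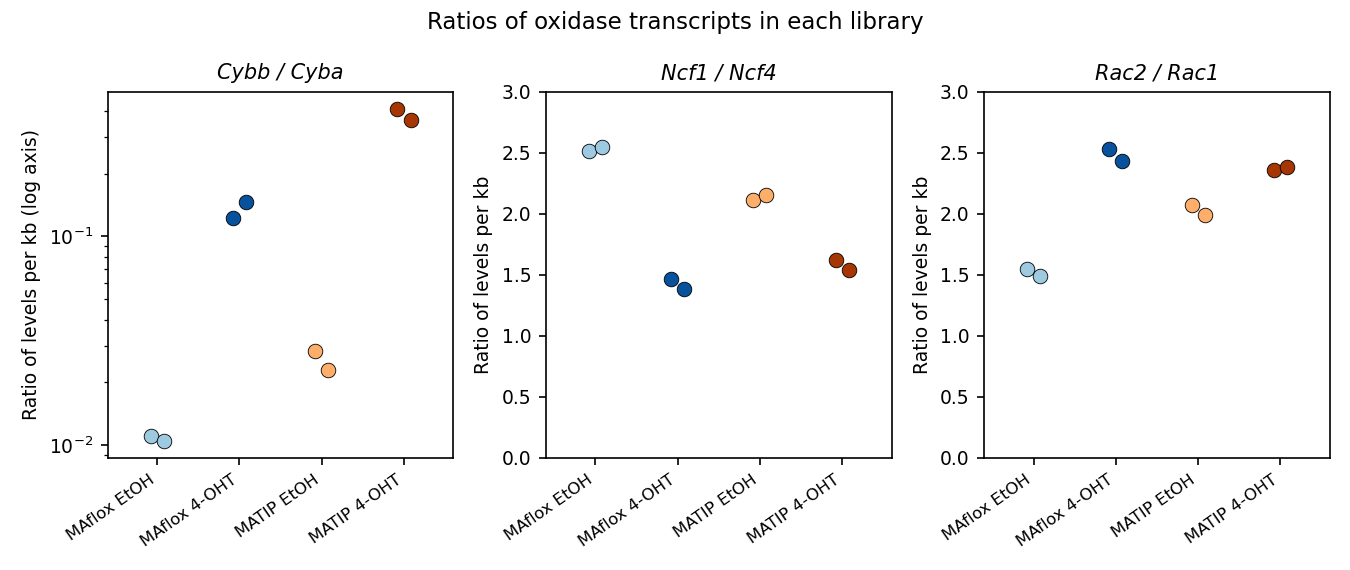
Ratios of levels per kilobase in every library for Cybb to Cyba (log axis), Ncf1 to Ncf4 and Rac2 to Rac1, with 2 points for each group. The ratio of Cybb to Cyba runs from 0.0105 in a MAflox EtOH library to 0.409 in a MATIP 4-OHT library, while the ratio of Ncf1 to Ncf4 is lower with 4-OHT in both lines.

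Summed over the 5 members, the level was 513 and 509 CPM per kb in MAflox EtOH, 1610 and 1625 in MAflox 4-OHT, 597 and 595 in MATIP EtOH, and 1239 and 1302 in MATIP 4-OHT. Cybb made up 0.539% and 0.516% of this sum in MAflox EtOH and 6.44% and 7.75% in MAflox 4-OHT. In MATIP cells its share was 1.28% and 0.990% with EtOH and 19.1% and 17.8% with 4-OHT. The sum with 4-OHT was thus lower in MATIP than in MAflox libraries while its Cybb share was higher. Cyba, which has the shortest exons, made up 43.4% to 53.1% of the sum over the libraries. Without division by length the members held 0.332% and 0.335% of all counts in MAflox 4-OHT and 0.313% and 0.312% in MATIP 4-OHT. The size of the gap between the 4-OHT groups therefore depends on the division by length. Libraries of a group differed least for Cyba in MAflox EtOH (coefficient of variation 0.0534%) and most for Cybb in MATIP EtOH (18.0%).

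Genes whose profile over the 8 libraries lay nearest to a member's were found by the root mean square difference of log2 CPM, each gene centred on its own mean, among 9507 genes. Nearest to Cybb were Lyz2, lysozyme of myeloid cells, at 0.271, Crispld2 at 0.316 and Lilr4b at 0.338, where the median gene lay at 2.78. Nearest to Cyba were Hcfc1r1 at 0.0699, Abhd5 at 0.0765 and Dhrs7 at 0.0969 (median gene 0.921). Arpc5, a subunit of the actin-nucleating Arp2/3 complex, at 0.0733, Myl6, a myosin light chain, at 0.0741 and Lancl1 at 0.0744 were nearest to Ncf1 (median gene 0.697). Cdkn2d, an inhibitor of cyclin-dependent kinases, at 0.0940, Dmkn at 0.112 and Crebl2 at 0.137 were nearest to Ncf4 (median gene 0.971). For Rac2 they were Cgrrf1 at 0.0716, the cytokine gene Tnfsf14 at 0.0739 and the deacetylase gene Sirt2 at 0.0872 (median gene 0.562). Among the members the closest pair was Cyba and Ncf4 at 0.231, and Cybb lay 2.02 to 2.40 from the others.

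The other genes that assemble, prime or restrain the oxidase were called in both directions. Of 27 such genes 26 were tested: 11 rose and 10 fell with 4-OHT in MAflox cells, and 13 rose and 8 fell in MATIP cells, with median log2 changes of -0.08 and 0.15. Over all genes tested, 33.1% were called higher and 32.1% lower in MAflox cells. In MATIP cells the shares were 37.5% and 38.6%. Counts near these shares, here and in the lists below, say little about a list. Hvcn1, the voltage-gated proton channel that offsets the charge the oxidase moves, rose on the log2 scale by 1.89 ± 0.07 in MAflox cells and 1.47 ± 0.07 in MATIP cells (edgeR adjusted p = 3.31e-14 and 2.92e-13). Rac1 changed by 0.13 ± 0.05 in MAflox cells (adjusted p = 0.0474) and 0.09 ± 0.05 in MATIP cells (adjusted p = 0.162), and with library totals alone both values were below 0. The MAflox call was also lost with the replicate block (adjusted p = 0.0748), with equal library means and without any of 3 libraries in turn: MAflox EtOH replicate 1, MAflox EtOH replicate 2 or MAflox 4-OHT replicate 1 (adjusted p = 0.128 to 0.243). The MATIP value was called higher with DESeq2 size factors (0.16), upper-quartile factors (0.23), the DESeq2 test (0.16) and a minimum of 10 CPM (0.24), as well as without either MAflox 4-OHT library (0.12 each), and lower with equal library means (-0.33). No direction is therefore given for Rac1. Nrros, which limits the production of reactive oxygen by restraining NOX2, rose by 0.35 ± 0.05 and 0.24 ± 0.05 (adjusted p = 1.42e-05 and 0.000512). That MATIP rise was not called with library totals alone (0.11, adjusted p = 0.0662) and was called lower with equal library means (-0.12, adjusted p = 0.0394).

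Among the kinases that phosphorylate or feed the complex, Prkcd (protein kinase C delta) rose by 0.56 ± 0.06 in MAflox cells and 1.66 ± 0.06 in MATIP cells. Prkcb (protein kinase C beta) rose by 1.48 ± 0.07 and 0.78 ± 0.06. Pik3r5, the regulatory subunit of PI3K gamma, rose by 2.07 ± 0.09 and 3.57 ± 0.08. All 6 values were called by edgeR, with adjusted p from 8.30e-18 for Pik3r5 in MATIP cells to 5.25e-08 for Prkcd in MAflox cells. Prkcd, Prkcb and Pik3r5 were named for their small p, and the kinases of the list did not all rise. In MAflox and MATIP cells Akt1 had -0.21 and -0.60, Pak2 -0.17 and -0.50, and Pak1 0.79 and -1.02. Pik3cg had -0.40 and 0.24. In MAflox cells 5 genes of the list were called lower with the length and GC trend removed, instead of 10.

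Of the other members of the NADPH oxidase family, 9 were listed and 1 passed the filter. That gene, Noxo1, the organiser partner of NOX1, had 0.97 ± 0.08 CPM in MAflox EtOH and 1.15 ± 0.46 in MAflox 4-OHT, and 1.12 ± 0.30 and 0.89 ± 0.62 in MATIP EtOH and 4-OHT (mean ± SD, n = 2), with no call in either line.

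NADPH for the burst comes mainly from the pentose phosphate pathway. Of 10 genes of NADPH supply, 7 rose and 2 fell in MAflox cells and 4 rose and 4 fell in MATIP cells, with median log2 changes of 0.47 and 0.01. Pgd, 6-phosphogluconate dehydrogenase, rose by 0.67 ± 0.05 and 1.02 ± 0.05 (edgeR adjusted p = 1.77e-09 and 1.52e-12), and Taldo1, transaldolase, by 1.02 ± 0.06 and 0.47 ± 0.06 (adjusted p = 1.36e-11 and 5.22e-07). Me1, malic enzyme, went opposite ways, with -0.46 ± 0.16 in MAflox cells (adjusted p = 0.0143) and 2.27 ± 0.14 in MATIP cells (adjusted p = 2.97e-11). The fall of Me1 was not called without MAflox 4-OHT replicate 1 (adjusted p = 0.0712), which left 1 gene of the list called lower. Rpe, ribulose-phosphate epimerase, rose by 0.85 ± 0.06 in MAflox cells (adjusted p = 1.74e-10) and had -0.08 ± 0.06 in MATIP cells (adjusted p = 0.219). The MATIP value turned both ways with the processing: it was called lower with library totals (-0.21, adjusted p = 0.00248) and equal library means (-0.19, adjusted p = 0.00194), and higher with the length and GC trend removed (0.16, adjusted p = 0.00760).

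Of 22 genes that handle superoxide and peroxide, 11 rose and 5 fell in MAflox cells and 15 rose and 5 fell in MATIP cells, with median log2 changes of 0.54 and 0.63. Mpo, the myeloperoxidase that makes hypochlorous acid from the hydrogen peroxide of the burst, had log2 changes of -1.44 ± 0.05 in MAflox cells and -2.27 ± 0.05 in MATIP cells (edgeR adjusted p = 1.54e-14 and 9.48e-18), opposite to the members. Prdx5, a peroxiredoxin, rose by 2.81 ± 0.07 and 0.88 ± 0.06 (adjusted p = 3.02e-17 and 1.93e-10). Nqo1, a quinone reductase, rose by 2.13 ± 0.07 and 5.07 ± 0.09 (adjusted p = 7.22e-15 and 5.87e-20), and Hmox1, haem oxygenase 1, by 2.77 ± 0.10 and 4.10 ± 0.10 (adjusted p = 8.58e-15 and 1.27e-17). With library totals alone 9 genes of this list were called lower in MAflox cells.

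Of 17 transcription factors described at promoters of the phagocyte oxidase genes, 5 rose and 10 fell in MAflox cells and 7 rose and 7 fell in MATIP cells, with median log2 changes of -0.38 and 0.28. Cebpe, a factor of granulocyte maturation, rose by 2.74 ± 0.08 in MAflox cells (edgeR adjusted p = 2.87e-16) and had 0.10 ± 0.08 in MATIP cells (adjusted p = 0.254). The MATIP value was called higher with upper-quartile factors (0.24), a minimum of 10 CPM (0.25), DESeq2 size factors (0.17), the DESeq2 test (0.17) and without MATIP EtOH replicate 2 (0.20). It was called lower with the trend removed in the fit with the replicate block (-0.14, adjusted p = 0.0385) and with equal library means (-0.49, adjusted p = 3.22e-06). Cebpb rose by 0.84 ± 0.07 and 1.66 ± 0.07 (adjusted p = 1.63e-09 and 3.39e-14). Hoxa9, a homeobox factor driven by MLL fusions, fell by 1.14 ± 0.06 and 1.37 ± 0.06 on the log2 scale (adjusted p = 2.02e-12 and 5.75e-14). Elf1, an ETS factor, fell by 0.89 ± 0.06 and 1.34 ± 0.06 (adjusted p = 1.44e-10 and 1.96e-13).

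The list of receptors that trigger the burst had the highest median change of the lists. Of 11 listed, 10 rose and none fell in MAflox cells, and 10 rose and 1 fell in MATIP cells. Median log2 changes were 2.53 and 3.71. The list also holds Fcgr2b, an inhibitory Fc receptor for IgG. It rose by 0.83 ± 0.06 in MAflox cells and was the gene that fell in MATIP cells (-0.80 ± 0.06, edgeR adjusted p = 5.20e-10). Fpr1 and Fpr2, the formyl peptide receptors, rose by 6.53 ± 0.24 and 4.82 ± 0.12 in MAflox cells (edgeR adjusted p = 2.13e-14 and 8.55e-17) and by 7.92 ± 0.17 and 6.30 ± 0.09 in MATIP cells (adjusted p = 2.58e-18 and 6.73e-21). Fpr1 started from 0.110 ± 0.102 CPM in MAflox EtOH and 0.303 ± 0.002 in MATIP EtOH (mean ± SD, n = 2), so its fold rests on few counts. Itgam, the alpha chain of complement receptor 3, rose by 3.26 ± 0.10 and 3.96 ± 0.10 (adjusted p = 1.14e-15 and 2.80e-17). Fcgr3, an Fc receptor for IgG, rose by 2.53 ± 0.07 and 1.72 ± 0.06 (adjusted p = 1.06e-16 and 6.70e-15).

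**Figure D4:**
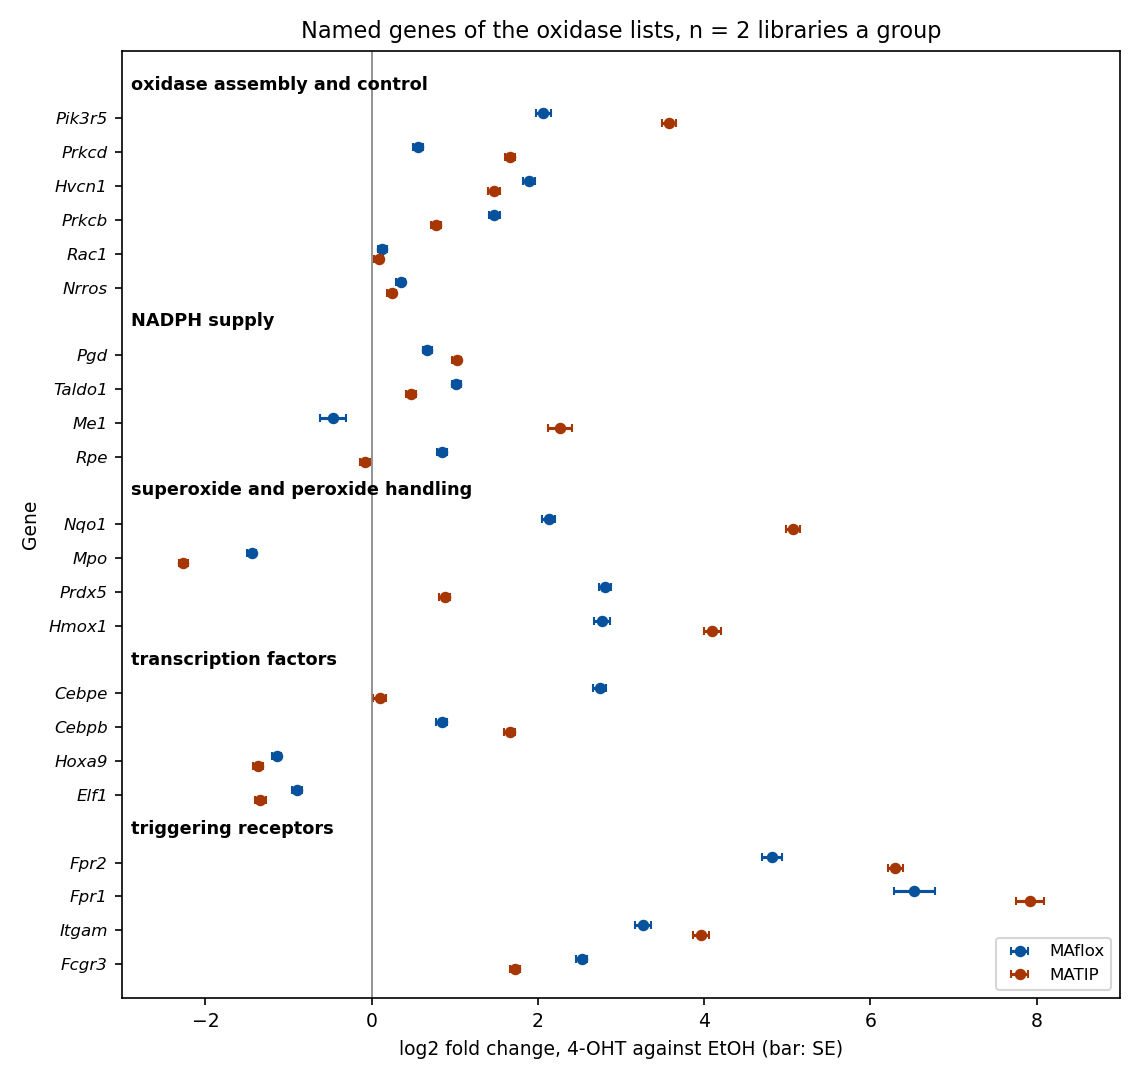
Log2 fold change with 4-OHT against EtOH (edgeR estimate, bars give the SE, 2 libraries in each group) for the named genes of 5 oxidase-related lists, in MAflox cells (blue) and MATIP cells (brown). The receptors lie between 1.72 and 7.92, Mpo, Hoxa9 and Elf1 lie below 0 in both lines, and Me1 lies on opposite sides of 0.

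The authors' deposited table gives log2 changes for 4-OHT of 5.39 in MAflox and 5.12 in MATIP cells for Cybb. The authors' deposited table lists 1.77 and 1.25 for Cyba, 1.35 and 0.35 for Ncf1, 2.18 and 0.78 for Ncf4, and 0.84 and 0.35 for Rac2, so no member has another direction there.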

How the data were processed

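Total RNA of 8 libraries was analysed. The authors deposited a table of whole-number read counts per gene symbol, not normalized. The submitters' processing notes name mm10 as the build and, as tools, DESeq2, featureCounts 1.6.4, HISAT2 2.1.0 and Trimmomatic 0.38.0. The sources used here do not give strandedness, the annotation or the treatment of reads with several matches. Another deposited table has, per its header, the authors' log2 fold changes for 4-OHT against EtOH in each line. Adjusted p-values of the authors stand beside them, per the file headers. Groups and replicate numbers came from the sample titles.

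Genes passing filterByExpr (minimum count 10, minimum total 15) were tested with the quasi-likelihood test of edgeR 4.0.16 (R 4.3.3) on TMM-scaled counts, with 1 coefficient per group over all 8 libraries (residual df 4, prior df 14.3, common biological CV 5.98%). P-values were adjusted by Benjamini-Hochberg over the 13722 genes of a contrast and called at 0.05. SEs were computed as the size of the log2 change divided by the root of F. Replicate libraries were not merged, since chi-square per df between them was 7.33 to 13.6. The procedure was tested on simulated data first, with 200 genes changed in the MATIP 4-OHT libraries alone. It recovered 53 of 71 changes of size 0.5 on the log2 scale, 73 of 76 of size 1 and 53 of 53 of size 2. With so few genes changed, the simulation cannot test the scaling for data in which most genes are called.

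Named genes were Kat5, the members, up to 4 genes of each list with the smallest p in either 4-OHT contrast, Rac1, Nrros and Hvcn1 whatever their p, and for each member the 3 nearest profiles (mean of at least 5 CPM, no predicted genes). Cybc1 was named by the rule but was not matched by symbol and has no value here. Of the listed genes, 2 are not reported here and were left out of the counts. Members, lists and rules were chosen with earlier results of these data known. Lengths, GC content and positions come from GENCODE M21 and promoters from RefSeq. Alternatives were DESeq2 1.42.0, other scaling factors, other filters, the replicate block, a length and GC correction, and leaving out each library.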

Additional observations from a re-analysis of the deposited data

Results flagged for a closer look

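Each gene named here had a 4-OHT response that differed between the lines by the edgeR test of the difference (Benjamini-Hochberg adjusted p under 0.05), given as MATIP minus MAflox on the log2 scale with 2 libraries in each group. Among the members the difference was -1.44 for Ncf4, -1.04 for Ncf1, -0.56 for Cyba and -0.53 for Rac2, with adjusted p from 1.71e-11 to 1.15e-05. In each of these 4 genes both lines rose and the MATIP rise was the smaller. Kat5, the floxed gene, had -2.82 (adjusted p = 2.54e-13).

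Genes that assemble or control the oxidase fell on both sides. The difference was 1.51 for Pik3r5 and 1.10 for Prkcd, and -0.70 for Prkcb and -0.42 for Hvcn1. Among genes of NADPH supply it was 2.73 for Me1, 0.36 for Pgd, -0.55 for Taldo1 and -0.93 for Rpe. Among genes that handle peroxide it was 2.94 for Nqo1, 1.33 for Hmox1, -0.82 for Mpo and -1.93 for Prdx5. Of the transcription factors, Cebpb had 0.82, Elf1 -0.45, Hoxa9 -0.23 and Cebpe -2.65, and of the receptors Fpr2 had 1.48, Itgam 0.70 and Fcgr3 -0.81. The values for Hoxa9, Pgd and Itgam lost their call under other settings. Hoxa9 had adjusted p = 0.111 with DESeq2 size factors, and with equal library means, the alternative chosen after seeing the data, Pgd had 0.0927 and Itgam 0.0527.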

How the results depend on the processing

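Of 470 member values under alternatives, 452 kept direction and call. With equal library means, chosen after seeing the data, the MATIP response was -0.0013 for Ncf1 and 0.0019 for Rac2, and 3 members were called higher. The Cybb difference of responses was called without a filter (-0.27) and with equal means (-0.47), and leaving out each library gave -0.48 to -0.11. Between the EtOH groups, Cyba had -0.0101 with upper-quartile factors, and was called at 0.20 with the length and GC trend removed, at 0.20 with the replicate block added and at 0.16 with equal means. Ncf1 was called at 0.14 with that trend removed and at 0.14 with the block added. Under both, 5 members were called higher, and 2527 genes were called lower with upper-quartile factors (1608 as reported). Between the 4-OHT groups, Rac2 had 0.0118 with DESeq2 size factors, 0.0177 with upper-quartile factors, 0.0117 by DESeq2, 0.0597 with a minimum of 10 CPM, -0.23 with equal means (called), and -0.117 to 0.0351 leaving out libraries.

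List counts for MAflox cells: 5 assembly genes were lower with the trend removed and 5 with the block added, 1 to 2 NADPH supply genes leaving out libraries, and 9 (library totals) or 11 (equal means) peroxide genes. In MATIP cells equal means gave 8 assembly genes higher and 17 lower, and 4 transcription factors higher. Other reversals: Rac1 had -0.0456 (MAflox) and -0.048 (MATIP) with library totals and -0.33 (MATIP) with equal means. Leaving out libraries, Noxo1 had -0.22 to 0.63 in MAflox cells and -1.26 to 0.29 in MATIP cells, and -5e-04 with equal means in MAflox cells. In MATIP cells Rpe had 0.0679 (upper quartile), 0.0783 (minimum of 10 CPM), 0.16 (trend removed, called) and 0.16 (with block, called), and -0.21 (library totals) and -0.19 (equal means), both called. Cebpe had -0.0387 (library totals), -0.14 (trend removed), -0.14 (with block, called), -0.0119 (without MATIP EtOH replicate 1) and -0.49 (equal means, called), and was called higher under 5 other settings at 0.17 to 0.25. Equal means gave -0.12 for Nrros and -0.0046 for Taldo1. The cause of these shifts was not tested.

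Replicate numbers are shared by title only, so they were not taken as pairs. Deviations of same-numbered libraries had correlations of -0.0023 in MAflox and -0.0391 in MATIP cells. With 2 libraries in each group these values cannot show whether the libraries were paired. The replicate block alone called 8645 genes in MAflox and 10151 in MATIP cells, against 8947 and 10441, and changed no member's call. Of the called genes 50.83% were higher in MAflox and 49.27% in MATIP cells. The MAflox share was 38.79% with library totals. With equal means the shares were 37.99% and 34.88%. For the difference of responses the share was 45.73%, or 32.35% with equal means, and between the 4-OHT groups 50.39%, or 37.94%. The median change of all genes moved by -0.16 (MAflox) and -0.38 (MATIP) with equal means, -0.17 and -0.13 with library totals, and in MATIP cells 0.15 with upper-quartile factors and 0.16 with a minimum of 10 CPM. The lowest count of a member in any library was 708.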
